A study of Mus musculus with 12 samples.

Results

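Bulaquine is an antimalarial of the aminoquinoline class, related to primaquine and used against the liver stages of vivax malaria, and the array titles name hepatotoxicity as the subject. The comparison described here is liver of mice killed 6 h after the drug against liver of vehicle-treated mice, on the 4 arrays titled 6h BQ F1, F2, R1 and R2 of 12 arrays in all. Each array held cDNA of both livers, one in the red dye Cy5 and the other in the green dye Cy3. The drug sample was in Cy5 on F1 and F2 and in Cy3 on R1 and R2, so dye and treatment were balanced. The other 8 arrays, 4 each at 12 h and 24 h, used the same layout. The labels give mouse liver, vehicle or bulaquine and the hour, and the design text speaks of groups of 4 mice. They do not give the dose, the strain, the sex or the age, nor which mouse or pool went on which array. What a p-value weighs here is thus the array-to-array spread, and some of that may be technical.

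Every value below is log2 of drug over vehicle, turned so that a positive value means more signal in the drug sample, after a smooth intensity correction (loess) within each array. Of 23040 spots, 16813 (73.0%) had a background-corrected intensity above 0 in both dyes on all 4 arrays and were tested, and they carried 7480 genes with a single symbol. Gene names rest on a spot order that had to be inferred, because the deposited intensities and the annotation run through the 48 printed blocks in different orders. The direction of the move was taken as the one that puts Mt1 at spot 12998 and Mt2 at spot 9645. The metallothionein names of these spots were thus part of that choice and not a separate outcome. With the order used here, the albumin spot went from percentile 85.9 to 99.98 of brightness, the apolipoprotein Apoa1 spot from 1.12 to 99.6 and the transthyretin (Ttr) spot from 61.2 to 98.9. The 8 spots of the hepatocyte list had a median brightness percentile of 99.2 (range 90.7 to 99.98). Other medians were 78.7 for neutrophil, 76.9 for 5 macrophage, 70.7 for stellate and fibroblast, 61.5 for endothelial, 33.8 for lymphocyte and 25.5 for bile duct spots. The hepatocyte list contains albumin, Apoa1 and Ttr, which also served to check the spot order, so its brightness is no separate test of the tissue label. Signal was low on most of the array: the median signal-to-noise value of a spot was between 0.708 and 1.03 in Cy5 and between 0.977 and 1.14 in Cy3. Between 9.66% and 13.0% of spots were at 0 in a dye.

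Across all probes the 2 dye orientations did not share a pattern. The turned ratios of F1 and F2 correlated at r = 0.15 and those of R1 and R2 at r = 0.12 over 16700 probes, while the 4 pairs of one F and one R array gave r from −0.13 to −0.10. These are descriptions across probes on arrays that share a dye orientation. The dye effect of a probe, estimated over all 12 arrays, passed an adjusted p of 0.05 in limma at 3150 probes. Array values of both orientations are therefore printed for many probes below. A value printed alone is the fitted one, and for some of these the F and R arrays stood on opposite sides of 0.

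**Figure D1:**
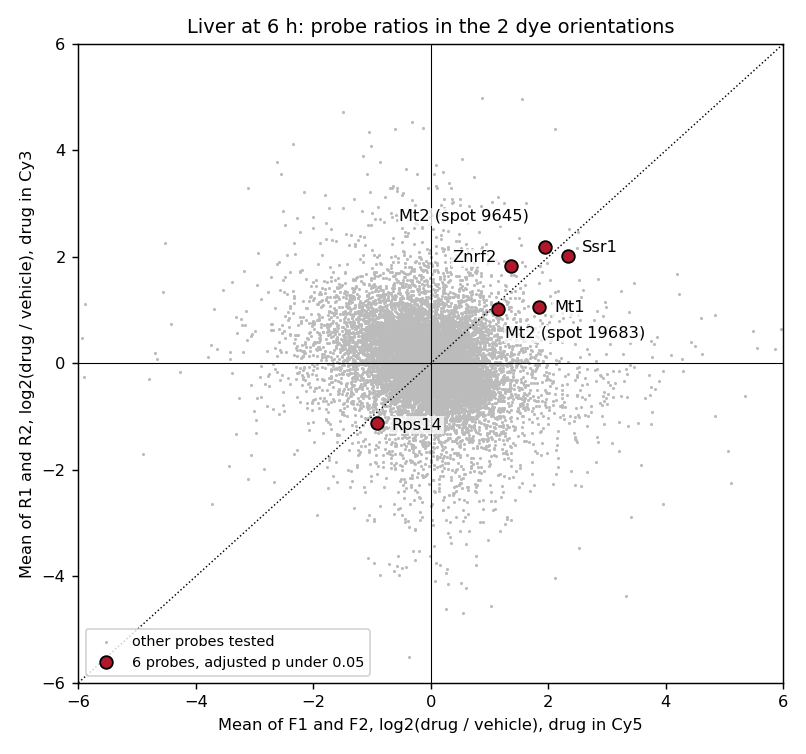
Mean log2 drug over vehicle of F1 and F2 (x, drug in Cy5) against that of R1 and R2 (y, drug in Cy3) for each tested probe. Grey points are probes, red points the 6 with an adjusted p under 0.05, and 9 probes fall outside the axes. The red points have the same sign in both orientations. Of these, Mt1 lies farthest from the dotted line of equal ratios, toward higher F values.

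The clearest change at 6 h was in the metallothioneins. These are small cysteine-rich proteins that bind zinc, copper and cadmium. In liver their genes are switched on by zinc through the transcription factor MTF1, which binds metal response elements in their promoters, and also by glucocorticoids, inflammatory cytokines and oxidative stress. Of 16813 probes, 6 passed an adjusted p of 0.05 in limma (0.0357%), 5 higher (0.0297%) and 1 lower (0.00595%), and 3 of the 5 higher probes were metallothionein probes.

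Mt2, which encodes metallothionein 2, was measured by 2 probes and both rose. At spot 9645 the ratios were 1.98 on F1, 1.91 on F2, 2.20 on R1 and 2.19 on R2. All 4 arrays lay close together, with both R arrays slightly above both F arrays. The fitted value was 2.07 ± 0.151, a 4.20-fold higher level, with a limma adjusted p of 0.00224. Here and below ± gives the SE, whose spread is estimated over all 12 arrays and not only the 4 at 6 h. The corrected intensities behind it were 89916 for the drug against 8948 for the vehicle on F1, 67447 against 10305 on F2, 40803 against 23689 on R1 and 28015 against 7992 on R2. The drug channel was thus the brighter one on every array before the loess step. At spot 19683 the ratios were 1.17, 1.12, 1.26 and 0.76 on F1, F2, R1 and R2. R2 was the lowest of the 4, and all were above 0. On R1 the corrected drug intensity, 13531, was below that of the vehicle, 14284, so there the positive ratio arose with the loess correction. On F1, F2 and R2 the drug channel was the brighter one. The fitted value was 1.08 ± 0.133 with a limma adjusted p of 0.0454, and without any one of the 6 h arrays the adjusted p lay between 0.0597 and 0.330.

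Mt1, which encodes metallothionein 1, had 1 tested probe, at spot 12998. Its ratios were 1.97 on F1, 1.73 on F2, 0.77 on R1 and 1.35 on R2. The F arrays were higher than the R arrays, and all 4 were above 0. The fitted value was 1.46 ± 0.124, a 2.74-fold higher level, with a limma adjusted p of 0.00443 and a dye effect of 0.38 beside it. On R1 the corrected drug intensity, 26590, was below that of the vehicle, 41725, so there the positive ratio arose with the loess correction. On the other 3 arrays the drug channel was the brighter one, with 134177 against 13035 on F1, 114915 against 18849 on F2 and 64168 against 34866 on R2. Leaving out F1 or R2 ended the call for Mt1 (adjusted p 0.0732 and 0.0501), whereas Mt2 at spot 9645 stayed below 0.05 without each of the 4 arrays in turn, at 0.0214 to 0.0422.

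Both metallothionein genes lie on 1 stretch of mouse chromosome 8 in the RefSeq annotation of GRCm38.p6, with Mt2 at chr8:94172618-94173567 and Mt1 at chr8:94178883-94180327. The promoter windows of RefSeq, from 250 bases before to 50 bases after the start listed for each gene, are printed because the metal response element is the known control site of this pair. Capitals mark the core of that element, TGCACNC or TGCGCNC on either strand, with N for any base. The Mt1 window is chr8:94178839-94179138 on the plus strand and the Mt2 window is chr8:94172368-94172667 on the plus strand.
Mt1: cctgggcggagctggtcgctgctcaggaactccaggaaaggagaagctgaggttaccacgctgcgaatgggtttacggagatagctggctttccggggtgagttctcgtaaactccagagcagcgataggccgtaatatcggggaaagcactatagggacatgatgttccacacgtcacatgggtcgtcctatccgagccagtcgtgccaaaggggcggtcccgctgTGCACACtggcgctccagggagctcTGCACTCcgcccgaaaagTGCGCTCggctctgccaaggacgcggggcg
Mt2: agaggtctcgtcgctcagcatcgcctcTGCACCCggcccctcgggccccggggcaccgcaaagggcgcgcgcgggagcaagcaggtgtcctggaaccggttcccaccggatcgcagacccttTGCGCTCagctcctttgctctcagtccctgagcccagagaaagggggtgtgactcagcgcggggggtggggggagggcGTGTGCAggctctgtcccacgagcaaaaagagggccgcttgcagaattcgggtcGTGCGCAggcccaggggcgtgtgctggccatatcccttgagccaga

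The Mt1 window held 3 matches, all on the gene's strand, and the Mt2 window held 4, with 2 on each strand. Over 32851 RefSeq promoter windows of the same length, 25.7% held at least 1 match and 1.97% held 3 or more. The listed Mt1 window overlaps the annotated span of the gene, whose first base is 94178883. A match is a description of the letters in the window and is not evidence of binding in these livers.

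The metallothionein ratios were largest at 6 h. At spot 9645 the fitted value was 2.07 at 6 h, 0.68 at 12 h and 0.03 at 24 h. The differences from 6 h passed the test, at −1.39 ± 0.214 for 12 h (limma adjusted p 0.0438) and −2.04 ± 0.214 for 24 h (limma adjusted p 0.0412). Mt1 had 1.46, 0.45 and 0.03 at the same times, and its differences from 6 h did not pass (adjusted p 0.0790 and 0.0579). Mt2 at spot 19683 had 1.08, 0.38 and 0.08.

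**Figure D2:**
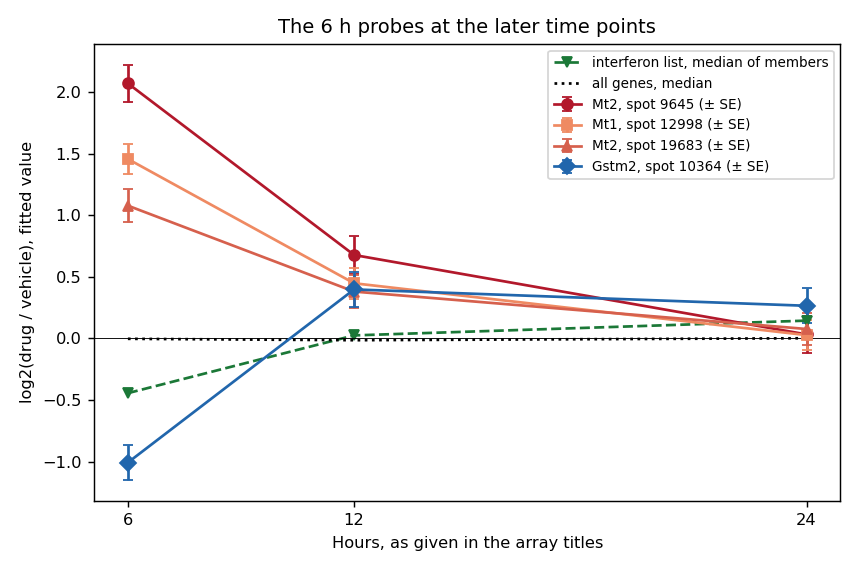
Fitted log2 drug over vehicle (y) at 6, 12 and 24 h (x) for the Mt1 and Mt2 probes and one Gstm2 probe, with SE bars from the 12-array fit. The interferon list median (dashed) and the median of all genes (dotted) have no error bar, and the metallothionein lines start between 1.08 and 2.07 and reach 0.03 to 0.08 at 24 h.

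The other 3 called probes were single spots whose gene had further probes that did not move with them. Znrf2, a ubiquitin ligase of the RING type, had ratios of 1.46, 1.28, 1.88 and 1.79 at spot 3921 and a fitted value of 1.60 ± 0.190 (limma adjusted p 0.0406), while its other 2 tested probes had 0.19 and −0.39. Ssr1, a subunit of the translocon-associated protein complex of the endoplasmic reticulum, had 3.03, 1.62, 1.60 and 2.43 at spot 10125 and a fitted value of 2.17 ± 0.274 (limma adjusted p 0.0454). Its other 3 probes had −0.24, −0.37 and 0.15. All 4 arrays were above 0 for both called spots.

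The called Ssr1 spot stood at position 45 of block 22, and the Mt2 spot 9645 at position 45 of block 21. Among the 38 other tested probes at that position, Mt2 included, the median ratio was 0.07, with a range from −1.42 to 2.07, and 4 had an unadjusted p under 0.05. Whether spots printed at one position share material was not tested. Rps14, a protein of the small ribosomal subunit, was the 1 probe that fell, with −0.84, −0.995, −1.18 and −1.04 at spot 8485 and a fitted value of −1.01 ± 0.117 (limma adjusted p 0.0406). Its other 2 probes had 0.23 and −0.06, and the other ribosomal protein genes did not follow it: of 60 measured, 41 had a ratio above 0 and the list median was 0.08. Leaving out any one of the 6 h arrays ended the calls of Znrf2 (adjusted p 0.215 to 0.321), Ssr1 (0.154 to 0.281) and Rps14 (0.163 to 0.254).

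**Figure D3:**
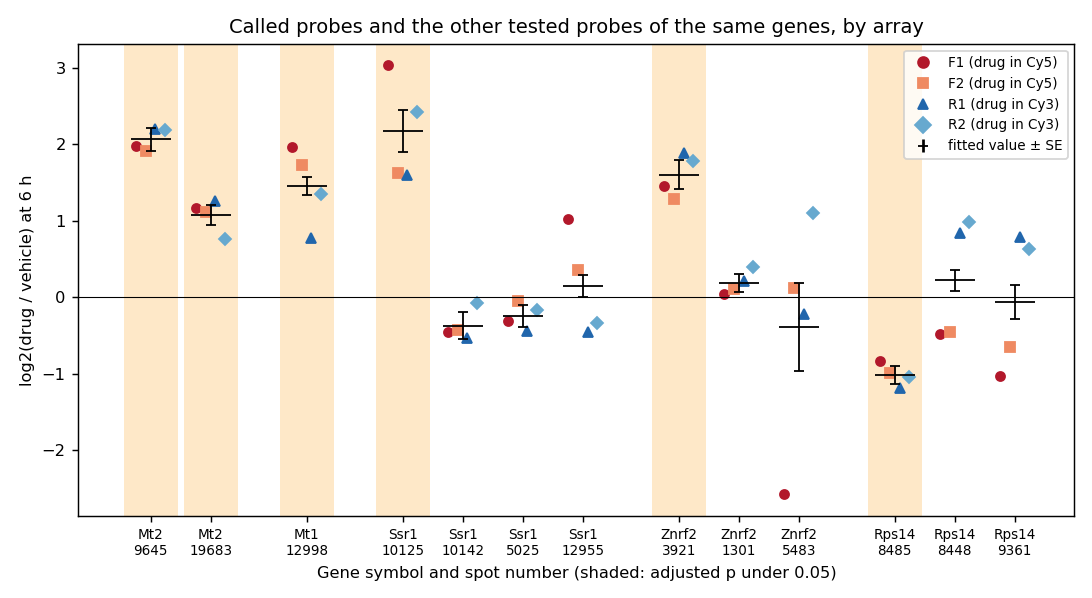
Log2 drug over vehicle at 6 h on each of the 4 arrays (y) for the called probes and the other tested probes of the same genes (x, by spot number). Points are arrays, black marks the fitted value ± SE and shading the 6 called probes, and only Mt2 has all of its several probes shaded.

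At an unadjusted p under 0.05 there were 944 probes (5.61% of those tested), 440 higher (2.62%) and 504 lower (3%), where chance alone would give 841. Values from this range are given below as levels that did not pass the test. Counted by the brightest probe of each gene, 2.67% of 7480 genes were higher and 2.97% lower at that threshold, and these shares are the background for the lists that follow. The median of all genes was −0.003 and 50.4% had a ratio below 0.

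Several liver genes outside the metal group had high and even ratios without passing. Tdo2, the tryptophan dioxygenase that opens the kynurenine pathway and a classical glucocorticoid-responsive liver enzyme, had 0.82, 0.62, 0.74 and 0.85 (fitted 0.76 ± 0.120, limma adjusted p 0.138). Fga, the fibrinogen alpha chain, had 0.69, 0.87, 0.53 and 0.80 (fitted 0.72 ± 0.115, limma adjusted p 0.138). Slc37a4, the glucose-6-phosphate transporter of the endoplasmic reticulum, had 0.56, 0.57, 0.66 and 0.55 (fitted 0.58 ± 0.103, limma adjusted p 0.197). None of the 3 had an array below 0, and the spread over the 4 arrays was small.

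Cxcl1, a chemokine that draws neutrophils, had a larger but less even ratio of 1.25, 1.99, 3.20 and 2.81 (fitted 2.31 ± 0.461, limma adjusted p 0.287). The R arrays were the higher ones. The other probes named by the same rule in this direction were Tnfrsf19 (1.81), Derl1 (1.03), Rrbp1 (2.93), Ripk4 (1.12), Ddit4 (1.73), Yae1d1 (1.08), Nsun3 (0.77) and Cnot7 (0.73), with limma adjusted p between 0.244 and 0.394. The other tested probes of Tnfrsf19 (−0.10) and Rrbp1 (−0.46 to 0.38) did not share these values.

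The glucocorticoid-responsive list, which contains both metallothioneins and Tdo2, had 15 genes measured. A ratio above 0 was found for 7 of them and below 0 for 8, and the median was −0.04. Beside Mt1, Mt2 and Tdo2 no member was higher at an unadjusted p under 0.05. In the list for metallothioneins and metal handling, with 13 genes measured, the metallothioneins were the only members above that threshold on the high side. Below 0 stood transferrin (Trf, −0.80), the iron carrier of plasma, ferritin light chain (Ftl1, −0.32) and the zinc importer Slc39a4 (−1.20), each at an unadjusted p under 0.05 and none passing after adjustment.

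Ferritin light chain was printed 5 times, and all 5 probes had a fitted ratio below 0, from −0.68 to −0.32, with 4 at an unadjusted p under 0.05. The brightest of them had −0.65, −0.73, −0.00 and 0.10 on F1, F2, R1 and R2. The low values stood on the F arrays and not on the R arrays. Trf showed the same division more strongly, with −2.50, −2.79, 0.94 and 1.14 at spot 372 and a dye effect of −1.83. The fitted ratio of a gene with so large a dye effect is the small remainder of 2 opposed orientations.

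The acute phase list, plasma proteins that the liver makes in inflammation, had only 7 genes measured. Of these, 6 had a ratio above 0, the median was 0.50, and 3 (42.9%) were higher at an unadjusted p under 0.05. These were Fga, the iron-siderophore binder Lcn2 (0.90 ± 0.304; 0.68, 0.82, 0.11 and 1.99 by array) and the lipopolysaccharide-binding protein Lbp (0.50 ± 0.178; 0.73, −0.08, 0.72 and 0.63). None passed after adjustment in limma. By array the list median was 0.68 on F1, −0.06 on F2, 0.30 on R1 and 0.34 on R2. The median of fitted values was 0.05 with the normexp background correction and 0.08 with no background correction.

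The interferon list held genes that type I and type II interferons switch on, among them guanylate-binding and immunity-related GTPases, the immunoproteasome and the peptide transporter that loads MHC class I. Of 30 genes measured, 25 had a ratio below 0 and the median was −0.44, against −0.003 for all genes. At an unadjusted p under 0.05, 12 were lower (40.0%, background 2.97%) and 1 was higher. None passed after adjustment in limma, where the lowest adjusted p was 0.244. The list median was below 0 on each array, at −0.45 on F1, −0.62 on F2, −0.25 on R1 and −0.24 on R2, and 10 members were below 0 on all 4 arrays. Over all tested probes, 11% had 1 sign on all 4 arrays, in either direction.

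The list also holds transcription factors of the response. Irf1 had −1.32, −0.46, −1.10 and −1.35 (fitted −1.06 ± 0.274, limma adjusted p 0.521), and Irf9, a DNA-binding factor of the interferon response, had −1.35, −0.45, −0.99 and −0.24 (fitted −0.76 ± 0.178, limma adjusted p 0.432). All 8 values were below 0. Stat2 was closer to 0 than the list median, at −0.23 ± 0.152.

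Among the effectors, Ly6e, a surface protein that restricts viral entry, was the most even, with −0.55, −0.73, −0.66 and −0.65 (fitted −0.65 ± 0.187, limma adjusted p 0.641). Lgals3bp, a secreted galectin-binding glycoprotein, had −0.32, −0.77, −0.69 and −0.70 (fitted −0.62 ± 0.159). Igtp, an immunity-related GTPase, had −1.03, −1.14, −0.36 and −0.27 (fitted −0.70 ± 0.163). For Igtp the F arrays were the lower ones, while Ly6e and Lgals3bp did not divide by dye.

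Ifit2, an RNA-binding antiviral protein, had a fitted ratio of −1.17 and Gbp5, a guanylate-binding protein, −0.84, and both rested mostly on the F arrays, with −2.31 and −1.88 on F1 and F2 for Ifit2 against −0.46 and −0.01 on R1 and R2. Gbp5 had −1.73 and −2.16 on F1 and F2, 0.58 on R1 and −0.03 on R2. Of the antigen processing genes, the transporter subunit Tap2 had −1.01, the immunoproteasome subunit Psmb8 −0.46 and the proteasome activator Psme1 −0.44. The partner subunit Tap1 (−0.15), Psmb10 (−0.08) and the MHC class I light chain B2m (−0.08) were near 0. The exonuclease Isg20 was the member on the high side, at 0.57 ± 0.152.

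The interferon list median was 0.03 at 12 h and 0.14 at 24 h; the later arrays enter the same fit and no difference of a list was tested. Background correction bore on the size: the list median was −0.08 with normexp and −0.17 without background correction, with 26 and 28 of the 30 members below 0. With the authors' deposited log ratios, their own normalized values of the same arrays, it was −0.45 and 26 members were below 0.

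Of 5 macrophage markers measured, 4 had a ratio below 0 and the median was −0.50. Mpeg1 had −0.84 ± 0.321, Csf1r, the receptor of a macrophage growth factor, −0.67 ± 0.296 and the lysozyme Lyz2 −0.50 ± 0.236. Laptm5 had −0.28, and Fcer1g stood above 0 at 0.19. On the arrays the macrophage median lay at −0.10, −0.17, −0.78 and −0.40 for F1, F2, R1 and R2. The median of fitted values was −0.05 with normexp and −0.23 with no background correction, with 4 of 5 below 0 in both. The lymphocyte list had 4 genes measured and a median of −0.01. Medians were −0.08 for hepatocyte, −0.07 for endothelial, −0.05 for stellate and fibroblast and −0.01 for neutrophil markers. Of the neutrophil markers, S100a9 was higher at an unadjusted p under 0.05, at 0.50. In whole liver, fewer cells of a type and less RNA per cell cannot be told apart, and the part of macrophage content in the interferon values was not tested.

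The interferon-stimulated response element is a promoter site through which interferons switch genes on. Its core, taken here as GAAA, any 2 bases and again GAAA on either strand, was present in 12 of the 25 interferon list members that have a RefSeq promoter window (48%), against 3.44% of all windows. Of the 12 members lower at an unadjusted p under 0.05, 9 had a window and 4 of those held the core. Windows of 2 of the lower members are printed to show the element, with the core in capitals: Igtp, chr11:58199306-58199605 on the plus strand, and Bst2, an interferon-induced antiviral membrane protein (fitted ratio −0.46), chr8:71537423-71537722 on the minus strand. In Bst2 there are 2 cores that overlap.
Igtp: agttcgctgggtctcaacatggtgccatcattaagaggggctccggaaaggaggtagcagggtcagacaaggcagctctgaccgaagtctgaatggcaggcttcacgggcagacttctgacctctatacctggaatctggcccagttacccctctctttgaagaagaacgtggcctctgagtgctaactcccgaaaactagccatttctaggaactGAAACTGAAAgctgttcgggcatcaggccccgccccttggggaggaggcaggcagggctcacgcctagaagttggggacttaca
Bst2: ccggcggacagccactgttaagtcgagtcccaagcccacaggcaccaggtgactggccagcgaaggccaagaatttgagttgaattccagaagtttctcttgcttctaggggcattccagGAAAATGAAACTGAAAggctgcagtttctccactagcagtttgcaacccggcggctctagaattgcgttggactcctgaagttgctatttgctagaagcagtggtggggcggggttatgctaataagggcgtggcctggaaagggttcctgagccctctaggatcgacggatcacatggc

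**Figure D4:**
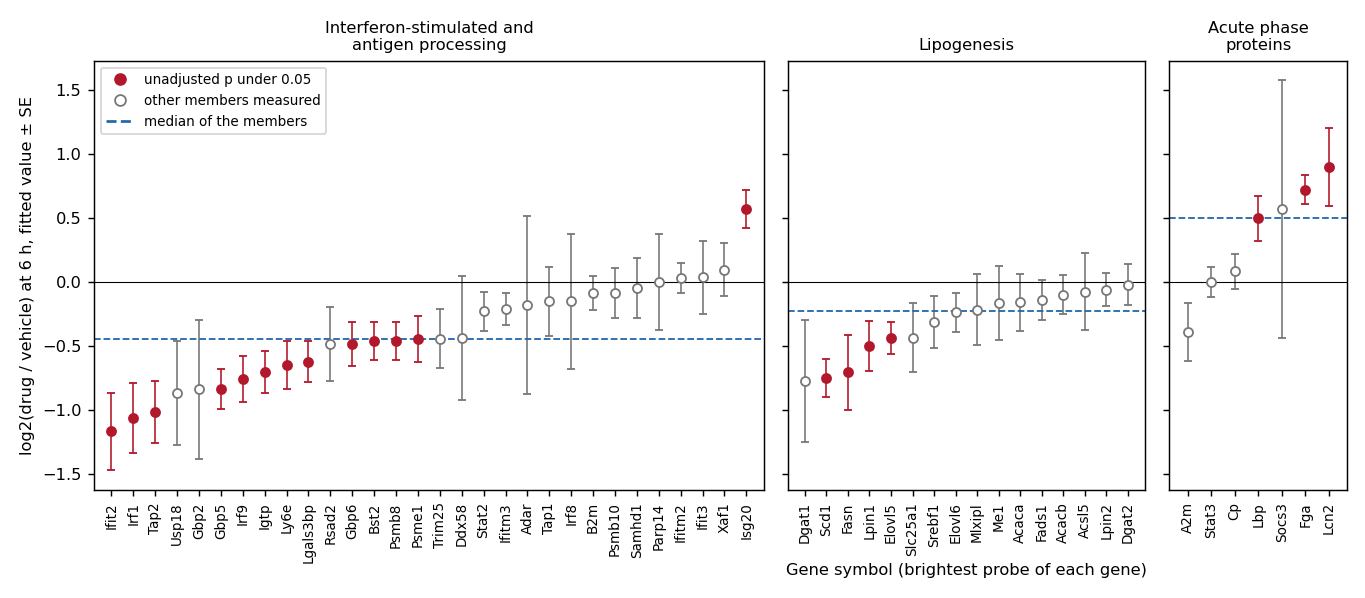
Fitted log2 drug over vehicle ± SE at 6 h (y) for each measured member of the interferon, lipogenesis and acute phase lists (x). Filled points have an unadjusted p under 0.05 and the dashed line is the list median, at −0.44, −0.22 and 0.50.

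Fatty acid synthesis in liver is driven by SREBP1c and ChREBP, which raise the synthase Fasn, the elongases and the desaturase Scd1. All 16 lipogenic genes measured had a fitted ratio below 0, with a median of −0.22, and 4 (25.0%) were lower at an unadjusted p under 0.05. Scd1, the stearoyl-CoA desaturase and one of the brightest spots on the array, had −0.72, −0.42, −1.04 and −0.81 (fitted −0.75 ± 0.146, limma adjusted p 0.272). All 4 arrays were below 0, and the R arrays were the lower ones.

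Elovl5, a fatty acid elongase, had −0.41, −0.67, −0.34 and −0.33 (fitted −0.44 ± 0.126, adjusted p 0.640). Lpin1, the phosphatidate phosphatase lipin 1, had −0.24, −0.31, −0.86 and −0.57 (fitted −0.50 ± 0.195). Fasn was measured by 3 probes, all below 0, at −0.71, −0.58 and −0.45, and its brightest probe had −1.50 and −1.45 on F1 and F2 against −0.14 and 0.27 on R1 and R2. The regulators themselves were closer to 0, with Srebf1 at −0.31 ± 0.203 and Mlxipl, the gene of ChREBP, at −0.21 ± 0.275.

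The lipogenic list also had medians below 0 at the later times, of −0.27 at 12 h and −0.21 at 24 h. It was −0.10 with normexp, with all 16 members still below 0. The cholesterol list had 17 genes measured, of which 14 had a ratio below 0, with a median of −0.26. Of these only the lipoprotein lipase Lpl (−0.47) was lower at an unadjusted p under 0.05 (5.88% of the list), and the squalene synthase Fdft1 had −0.81 ± 0.387. The cholesterol median was −0.08 with normexp, and its lowest and highest values with a 6 h array left out were −0.26 and −0.13. Genes of fatty acid oxidation and ketogenesis stood around 0, with a median of −0.01 over 15 genes and none at an unadjusted p under 0.05.

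**Figure D5:**
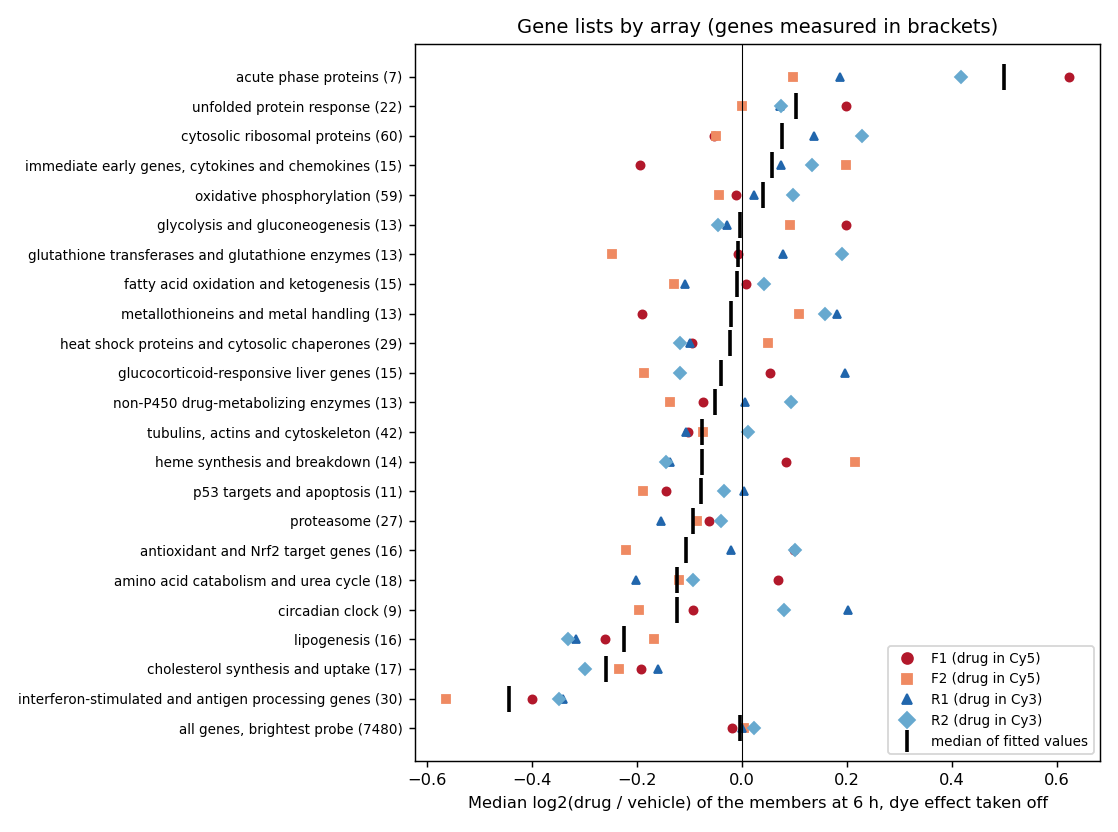
Median log2 drug over vehicle of each gene list at 6 h (x) on each of the 4 arrays after the dye effect of each probe was taken off, with the median of fitted values as a black bar; the number of genes measured is in brackets. The interferon, cholesterol, lipogenesis and proteasome lists lie below 0 on all 4 arrays, the acute phase list lies above 0 on all 4, and all genes together lie at 0.

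The glutathione transferase Gstm2 had the lowest adjusted p outside the called set on the low side. Its probe at spot 10364 had −1.87 and −1.60 on F1 and F2 and −0.27 and −0.29 on R1 and R2 (fitted −1.01 ± 0.142, limma adjusted p 0.0797). All arrays were below 0, and the dye effect was −0.68. Of the other 4 probes carrying the name, 3 had fitted ratios of −0.66, −1.12 and −1.11 and 1 had 0.07. The mu-class transferases are related in sequence, and whether these spots also bind cDNA of other family members was not tested. At spot 10364 the value at 12 h was 0.40, and the difference from 6 h was 1.40 ± 0.201 (limma adjusted p 0.0323).

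Of the 13 glutathione genes measured, Gstm2 (−0.66 at its brightest probe) and Gstt3 (−0.42) were lower at an unadjusted p under 0.05 and the median was −0.01. None of the 16 genes of the antioxidant and Nrf2 list reached that threshold in either direction, and their median was −0.11. The heme oxygenase Hmox1, a common marker of oxidative stress, had 0.22, −0.14, 0.14 and −0.90 (fitted −0.17 ± 0.219). The 4 arrays lay on both sides of 0. In the list of drug-metabolizing enzymes other than cytochromes P450, 13 genes had a median of −0.05, with the thiopurine methyltransferase Tpmt (0.33) above and the carboxylesterase Ces1f (−0.37) below at an unadjusted p under 0.05.

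Among stress chaperones, 29 heat shock genes had a median of −0.02 and 2 were lower at an unadjusted p under 0.05, the Hsp90 cochaperone Ahsa1 (−0.97) and Dnajb1 (−0.51, with 0.26 at its other probe). Hspa8, the constitutive Hsc70, was below 0 at all 6 of its probes, from −0.45 to −0.28, and each of these had values below 0 on the F arrays and above 0 on the R arrays. Hsp90aa1 had −0.65, −0.77, −0.41, −0.33 and 0.11 at its 5 probes. The 22 genes of the unfolded protein response had a median of 0.10, with 14 above 0.

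The remaining named probes on the low side did not pass either. The cyclin Ccnd2 had −0.85 at spot 10848 and 0.58, 0.12 and 0.25 at its other 3 probes. Dut, which hydrolyses dUTP, had −1.90, −1.57, −1.64 and −1.99, and Adss, an enzyme of AMP synthesis, had −1.99, −1.33, −1.60 and −2.63, both even across dyes but dim. The others were Fam8a1 (−0.69), Pik3ca (−0.92, with 0.08 at its other probe), Ptbp3 (−1.42), Vps26b (−1.09), Lims2 (−1.53) and Rtn4 (−0.52), with limma adjusted p between 0.197 and 0.345. Fam8a1 and Vps26b were both printed at position 271 of their blocks, and for both the F arrays were the lower ones. Whether the print position bears on these values was not tested.

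Genes printed more than once give a check within the array, since 2457 genes had 2 or more tested probes. Of these, 17 had all probes on one side of 0 with at least 2 at an unadjusted p under 0.05, 13 lower and 4 higher. The higher ones were Mt2, the copper-handling protein Commd1 (0.35 and 1.02), the vitamin E transfer protein Ttpa (0.48 and 0.51) and the mitochondrial cochaperone Dnaja3 (0.09 to 0.88). The lower ones included, beside Trf, Ftl1, Fasn and Hspa8, the guanylate-binding protein Gbp9 (−0.30 and −0.53), which was not in the interferon list, the tubulin Tubb4b (−0.86 to −0.11), Sephs2 (−0.51 and −0.36), Farp2 (−1.22 and −0.40), Gapvd1 (−1.31 to −0.21) and Tmem254a (−0.63 and −0.51). Kctd12 had the lowest values (−2.26 and −1.45) from 2 dim spots, each with one array far below the others, at −3.75 on F2 and −6.57 on R2.

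Of 42 cytoskeletal genes measured, 29 were below 0, the median was −0.08 and 7 (16.7%) were lower at an unadjusted p under 0.05, among them Tubb2b (−0.70), the smooth muscle actin Acta2 (−0.67), Tpm3 (−0.58) and Tln1 (−0.62). Respiratory chain genes (59 measured) had a median of 0.04 and proteasome genes (27) one of −0.09. Heme synthesis and breakdown, the circadian clock, p53 targets, amino acid catabolism, glycolysis, and immediate early genes and cytokines had medians between −0.12 and 0.06 over 9 to 18 genes each. Globin probes were below 0 in 16 of 22 cases, with a median of −0.24. Some of them also carry the symbol of the histone gene H3f3a, so they may not follow blood alone.

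The difference between 12 h and 6 h passed the test at 32 of 16772 probes (0.191%), 30 of them higher at 12 h (0.179%). That between 24 h and 6 h passed at 2 of 16787 probes (0.0119%), 1 higher and 1 lower at 24 h (0.00596% each). Of the 32, 10 carried globin symbols and 13 carried none. The globin probes among them had 6 h values from −0.40 to −0.09 and 12 h values from 1.36 to 1.95, so this contrast is mostly one of the 12 h arrays. The 6 h values themselves contributed the metallothionein and Gstm2 differences given above.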

How the data were processed

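The spot intensities were deposited by the authors as background-corrected values per dye beside raw and background intensities, and the deposited signal-to-noise score of each spot was used as given, with no unit. Per the submitters' design text, arrays were scanned with ImageQuant 5.0, quantified with ArrayVision 8.0 and LOWESS-normalized with Avadis 4. The authors' deposited log2 ratios of the same arrays were used only as an alternative. Probe names came from the platform annotation (15114 spots with 1 symbol, 206 with several, 7720 with none; 15021 of the first found in RefSeq), after moving the 48 blocks of 480 spots from row order to column order of the 12 by 4 grid, an inferred step. Values at 0 were treated as missing. Log2(Cy5/Cy3) was loess-normalized within each array and fitted with limma 3.58.1 (R 4.3.3) over all 12 arrays, with 1 column per time point coded by the dye of the drug sample and a dye effect; 5064 of 16813 probes lacked some of the later values. Benjamini-Hochberg adjustment ran over all tested probes, and a call is an adjusted p under 0.05. The fit was tested on simulated data. The labels do not say whether F and R arrays of one number share RNA, so they were not treated as pairs. Their deviations from the mean of their time point correlated at r from −0.39 to −0.18. Deviations from a mean of 4 arrays tend to correlate negatively, so these values cannot tell whether the arrays share RNA. Intensities give no counting interval: the number of arrays limits the precision. Named genes were every called probe of 1 sign on 4 arrays, up to 12 further probes per direction with an unadjusted p under 0.01 and 1 sign on 4 arrays, genes of 2 or more probes of 1 sign with at least 2 under 0.05, and list members with an unadjusted p under 0.05, beside a few list members named for their role. A list counts each gene once, by its brightest probe. The lists and the comparison were chosen with earlier results of these data known. Alternatives changed the filter, background correction, normalization, dye term, pairing and arrays used. Cytochrome P450 genes are not reported here.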

Additional observations from a re-analysis of the deposited data

Results flagged for a closer look

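Mt2 at spot 9645 differed between times in the same fit, with a 12 h minus 6 h difference of −1.3921 and a 24 h minus 6 h difference of −2.0366 on the log2 scale, both past an adjusted p of 0.05 in limma. Gstm2 at spot 10364 differed in the other direction, with a 12 h minus 6 h difference of 1.4043. Of 61 groups of 4 arrays examined, 2 had an array set apart from the other 3 by Dixon's criterion, and chance alone flags about 1 in 20 groups. These were Mt2 at spot 19683, where array R2 had 0.6834 with the dye effect taken off, below the other 3 arrays, and the median of the heat shock list, which, also with the dye effect taken off, was 0.0495 on F2 and below 0 on the other 3. As measured it was −0.16 on F1, −0.11 on F2, 0.21 on R1 and 0.18 on R2.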

How the results depend on the processing

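The count of 6 called probes at 6 h became 12 with probes measured on all 12 arrays, 12 without the dimmest 30% of probes, 11 with normexp (offset 50), 29 with no background correction, 1 with no dye effect in the model and 2 with probes of a gene averaged. The 4 arrays of 6 h alone gave 0 in limma (1093 at an unadjusted p under 0.05), and dye-swap pairs averaged gave 0 (1100). With a replicate block it was 10, for 6 h against 12 h it was 50 instead of 32, and for 6 h against 24 h 21 instead of 2; the numbers are not known to pair the samples. Leaving out 1 array gave 1 to 3 calls at 6 h, with the fewest (1) without F1 or without R2, and without a 6 h array 7 to 10 for 12 h against 6 h and 0 to 1 for 24 h against 6 h. Over all 12 arrays left out in turn these were 7 to 29 and 0 to 14, the highest of each without F1 of 24 h. For 12 h against 6 h, normexp gave 6 calls, no background correction 65 and averaged pairs 0 (1165 at an unadjusted p under 0.05). For 24 h against 6 h, the counts were 22 on probes of all 12 arrays, 24 without the dimmest 30%, 6 with normexp, 66 with no background correction, 7 with loess in each block, 0 with median centring (1328 at an unadjusted p under 0.05) and 0 with averaged pairs (1363). The cause was not tested, except that fewer arrays or pairs leave fewer degrees of freedom. Mt2 at spot 9645 stayed called in 12 of 12 fits without an array and 11 of 13 other alternatives, and Mt1 in 10 of 12 and 10 of 13. Named probes that turned sign were Ccnd2 (0.0236), Got2 (0.0588) and Rtn4 (0.114) with probes of a gene averaged and Gapvd1 at spot 12557 (0.0430) with no background correction. With 1 array left out, Hmox1 ranged from −0.352 to 0.141, the latter without R2, and Tubb4b at spot 1470 from −0.417 to 0.147, the latter without R1. Of 725 list medians under alternatives, 26 moved by more than the spread between arrays. The low signal-to-noise of most spots limits what these arrays can show.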
